A study of Mus musculus with 4 samples.

Results

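The 9 genes described here encode interferon regulatory factors (Irf1, Irf2, Irf4, Irf5, Irf7, Irf8 and Irf9) and signal transducers and activators of transcription (Stat2 and Stat3). They were chosen by symbol, and all 9 were found among the 27998 genes of the deposited matrices. They were measured by single-cell RNA sequencing of pleural fluid cells from C57BL/6 mice with malignant pleural effusions of Lewis lung carcinoma (LLC), a mouse lung tumour line. The 4 treatments were given into the pleural space on day 11, and cells were taken on day 13, after 48 h. They were PBS, the control; 1 µg of LNP-cGAMP, a preparation of the STING agonist cGAMP; 30 µg of anti-PD-L1, the antibody 10F.9G2 against an inhibitory ligand of T cells; and both agents at these doses, the combination. Every mouse carried the tumour effusion, the PBS mice included. Each treatment gave 1 library, made from a pool of cells of 3 mice, so no difference between treatments has a replicate check and no p-value is given. The comparisons ask how each agent, and the pair, changed gene expression in the effusion.

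Interferon regulatory factors share a DNA-binding domain that reads GAAA repeats. STING activation leads through the kinase TBK1 to the production of type I interferon, and the interferon receptor then activates STAT2, which joins IRF9 and a further STAT in the complex ISGF3. ISGF3 binds the interferon-stimulated response element (ISRE) of many genes, among them the gene of IRF7, which in turn drives interferon-alpha genes. IRF1 is an activator induced by interferon-gamma through the gamma-activated site (GAS) that STAT dimers bind, and IRF2 binds the same elements as IRF1 and often opposes it. IRF5 acts downstream of Toll-like receptors and MyD88 in macrophages. IRF8 and IRF4 are lineage factors of myeloid, dendritic and lymphoid cells that bind DNA with partners such as PU.1 and BATF. STAT3 carries signals of the interleukin-6 and interleukin-10 families.

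The promoter windows that held a match to an interferon-response motif are shown, with that of Irf7, which had the largest differences after LNP-cGAMP. RefSeq windows on GRCm38.p6, from 250 bases before to 50 bases after a start site, were found for all 9 genes and were searched on both strands for the ISRE letters (GAAA, any 2 bases, GAAA) and the GAS letters TTCNNNGAA, a sequence that is its own reverse complement. The ISRE letters occurred in 3.44% and the GAS letters in 8.30% of all 32851 windows. Each window below is written 5′ to 3′ on the strand of its gene, with the matches in capitals. Irf1 (chr11:53769764-53770063, plus strand) held a GAS match at -90, counted in bases from the start site. Irf2 (chr8:46739495-46739794, plus strand) held an ISRE match at -241 and a GAS match at -224. Stat2 (chr10:128270248-128270547, plus strand) held an ISRE match on the opposite strand at -222. Irf8 (chr8:120736108-120736407, plus strand) held GAS matches at -171 and -153. Irf7 (chr7:141266375-141266674, minus strand) held neither set of letters in this window, and neither did the windows of Irf4, Irf5, Irf9 and Stat3. A match is a string of letters and not evidence of binding, and a missing match says only that these letters are not in the window.
Irf1: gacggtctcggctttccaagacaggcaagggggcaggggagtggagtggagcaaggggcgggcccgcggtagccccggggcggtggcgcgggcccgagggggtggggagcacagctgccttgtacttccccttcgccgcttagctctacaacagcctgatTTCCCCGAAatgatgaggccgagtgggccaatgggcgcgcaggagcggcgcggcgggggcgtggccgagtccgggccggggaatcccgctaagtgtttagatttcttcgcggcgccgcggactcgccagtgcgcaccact
Irf2: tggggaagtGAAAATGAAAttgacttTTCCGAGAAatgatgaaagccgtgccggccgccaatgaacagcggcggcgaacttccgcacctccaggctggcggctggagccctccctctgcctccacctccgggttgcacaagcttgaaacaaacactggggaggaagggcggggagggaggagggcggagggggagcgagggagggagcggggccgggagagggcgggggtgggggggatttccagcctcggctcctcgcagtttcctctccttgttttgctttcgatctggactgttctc
Stat2: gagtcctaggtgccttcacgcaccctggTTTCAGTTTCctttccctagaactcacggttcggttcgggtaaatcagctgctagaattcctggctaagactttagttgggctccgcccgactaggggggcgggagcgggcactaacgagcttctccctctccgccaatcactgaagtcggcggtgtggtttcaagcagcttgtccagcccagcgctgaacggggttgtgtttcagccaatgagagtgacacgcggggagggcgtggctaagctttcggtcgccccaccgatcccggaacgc
Irf8: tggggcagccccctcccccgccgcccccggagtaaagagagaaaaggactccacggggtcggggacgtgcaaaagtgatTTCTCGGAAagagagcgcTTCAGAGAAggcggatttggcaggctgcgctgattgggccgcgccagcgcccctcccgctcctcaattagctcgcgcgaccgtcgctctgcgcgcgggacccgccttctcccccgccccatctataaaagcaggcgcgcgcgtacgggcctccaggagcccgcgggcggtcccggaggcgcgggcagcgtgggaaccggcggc
Irf7: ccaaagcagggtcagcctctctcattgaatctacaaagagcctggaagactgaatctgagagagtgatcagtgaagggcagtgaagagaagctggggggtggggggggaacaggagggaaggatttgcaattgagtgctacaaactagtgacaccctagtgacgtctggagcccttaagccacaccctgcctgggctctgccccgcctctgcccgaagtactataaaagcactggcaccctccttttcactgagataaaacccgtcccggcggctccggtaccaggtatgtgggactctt

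The 4 libraries held 68828158 to 88855120 UMIs (unique molecular identifiers, each marking a captured RNA molecule), and 2838 to 3842 cells were kept in each, with a median of 16410 to 18596 UMIs per cell. Of 13565 kept barcodes, 35 (0.258%) occurred in more than 1 library. Clusters were named from marker genes, and the classes are called monocyte/macrophage-like (1631 to 2550 cells per library), neutrophil-like (560 to 920), T cell-like (82 to 241) and conventional dendritic cell-like (57 to 124). These 4 classes had at least 50 cells in each library and were compared; NK cell-like cells (29 to 101) are given as values. Different clusters held most of the monocyte/macrophage-like cells in different libraries. PBS and anti-PD-L1 cells lay mainly in cluster 1 (leading genes Cd163 and Ccl24), cluster 3 (Lyve1, Marco) and cluster 4 (Vcan, Ccr2), and LNP-cGAMP cells in cluster 2 (Ccl12, Ms4a7), cluster 5 (Saa3), cluster 7 (Hspb1, Saa3), cluster 4 and cluster 8 (Ccl8). The pools also differed in the sex of their mice, read from Y-linked transcripts and Xist with tumour-like cells left out. Female-called cells made up 0.0532% of the called cells of PBS and 0 of 2697 of LNP-cGAMP, but 67.8% with anti-PD-L1 and 78.4% with both agents. An unnamed cluster of 308 cells, 268 of them from LNP-cGAMP, scored on neutrophil markers but had none among its leading genes and was left out of the classes.

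Levels are UMI counts per 1000000 UMIs of a class (CPM) with exact 95% Poisson intervals, and folds are ratios of CPM with exact 95% intervals; they carry counting error alone. A member counts as higher or lower where log2 of (CPM + 10) over (CPM + 10) reached 1.5-fold, among genes that reached 20 UMIs in total and 10 CPM in some library. All 9 members passed that minimum in T cell-like and dendritic cell-like cells, and 8 passed in monocyte/macrophage-like and neutrophil-like cells, where Irf4 did not. Among the 5 classes plotted, neutrophil-like cells had the highest CPM of Irf1, Irf2, Irf7, Irf9, Stat2 and Stat3 in all 4 libraries, although the interval overlapped that of the next class for Irf2 with LNP-cGAMP and for Stat2 in both pools with LNP-cGAMP. CPM is a share of the UMIs of a class and not an amount per cell. Median depth was 2094 to 2626 UMIs in neutrophil-like and 20599.5 to 34685 in monocyte/macrophage-like cells. In PBS, Irf1 had 2074 UMIs in 865 neutrophil-like cells and 11450 in 1631 monocyte/macrophage-like cells, so this order does not hold per cell. On GRCm38, Irf4 lies on chromosome 13 (30749226 to 30766976, plus strand), Irf5 on chromosome 6 (29526625 to 29541871, plus), Irf9 on chromosome 14 (55603571 to 55610030, plus) and Stat3 on chromosome 11 (100885098 to 100939540, minus).

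**Figure D1:**
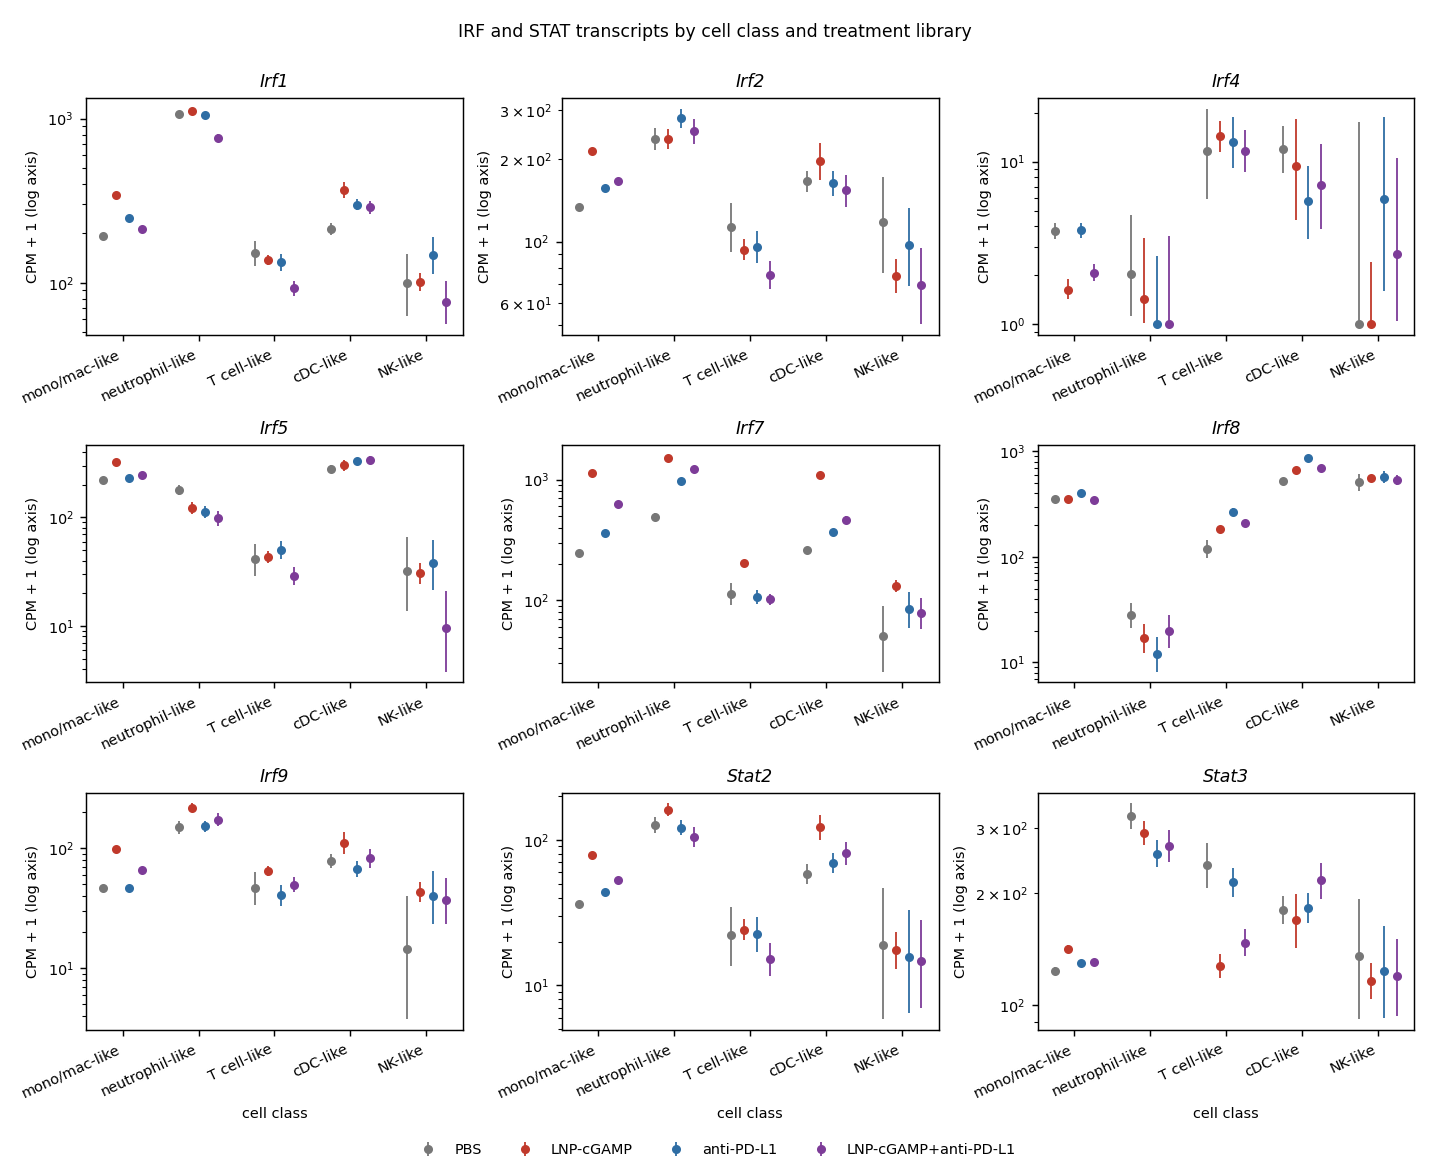
Level of each of the 9 genes (CPM + 1, log axis) in 5 cell classes, with 1 point per library (colour) and bars for the exact 95% counting interval. In monocyte/macrophage-like cells the Irf7 points lie at 244 (PBS), 359.8 (anti-PD-L1), 624 (combination) and 1126 CPM (LNP-cGAMP), while the Irf8 points lie between 343 and 403 CPM.

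Irf7, on chromosome 7 (141262706 to 141266481, minus strand, GRCm38), was the member with the largest difference after LNP-cGAMP in every compared class other than T cell-like cells, where Stat3 differed slightly more and was lower. In monocyte/macrophage-like cells its level was 244 CPM in PBS, 1126 with LNP-cGAMP, 359.8 with anti-PD-L1 and 624 with both agents. No intervals overlapped, and the order placed the 2 libraries with LNP-cGAMP above the 2 without it. The fold was 4.62 (4.54 to 4.71) for LNP-cGAMP and 2.56 (2.51 to 2.61) for the combination over PBS, and the combination was 1.80 times lower (1.78 to 1.83) than LNP-cGAMP. The PBS pool and the LNP-cGAMP pool share few clusters, so the same gene was read in cluster 4, which all libraries filled. There Irf7 was at 368 CPM in PBS, 1601 with LNP-cGAMP, 580.4 with anti-PD-L1 and 1090.3 with both agents, the same order as in the whole class.

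In neutrophil-like cells Irf7 was at 493 CPM in PBS, 1519 with LNP-cGAMP, 967 with anti-PD-L1 and 1224 with both agents. All 3 treated pools were above PBS, by 3.08-fold (2.87 to 3.31), 1.96-fold (1.82 to 2.12) and 2.48-fold (2.29 to 2.69) in that order. Both neutrophil-like clusters showed this order, cluster 0 (Mmp9, Cxcr2) at 520.2, 1896, 1088 and 1401 CPM and cluster 6 (Ngp, Retnlg) at 414, 1139.5, 777 and 898 CPM. The anti-PD-L1 difference went with the sex call of the cells. Within the anti-PD-L1 pool Irf7 was at 1061 CPM in female-called and 551 CPM in male-called neutrophil-like cells, against 501 CPM in the male-called cells of PBS, which left a log2 ratio of 0.14 in male-called cells in place of 0.96. In the combination, only female-called neutrophil-like cells were numerous enough to read (85 cells, 1165 CPM). Its 2.48-fold difference could therefore not be read in male-called cells. The call of a cell follows its mouse, so female-called and male-called cells of a pool come from different mice; whether sex or the individual mouse goes with the level cannot be told apart.

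Dendritic cell-like cells had Irf7 at 258 CPM in PBS, 1088 with LNP-cGAMP, 366 with anti-PD-L1 and 465 with both agents. The LNP-cGAMP pool stood apart, 4.21-fold (3.82 to 4.65) over PBS, and the combination was 2.34 times lower (2.11 to 2.59) than LNP-cGAMP, at 1.80-fold (1.62 to 2.00) over PBS. Here too only female-called cells of the combination could be read (460 CPM), against male-called cells in PBS (248 CPM). T cell-like Irf7 was at 112, 203, 105 and 101 CPM over PBS, LNP-cGAMP, anti-PD-L1 and combined treatment. LNP-cGAMP alone was higher there, by 1.81-fold (1.47 to 2.26). RNA from other cells in the droplets, estimated from near-empty barcodes, would by itself give 94.5 CPM of Irf7 in LNP-cGAMP T cell-like cells and 16.8 CPM in those of PBS, and the log2 ratio of 0.80 was 0.25 in the alternative least favourable to it. Within T cell-like cluster 13 (Il7r, Tcf7) Irf7 was at 171 CPM in PBS, 489.9 in LNP-cGAMP and 187 in anti-PD-L1.

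Irf9 and Stat2, the DNA-binding and STAT partners of ISGF3, were higher after LNP-cGAMP together in monocyte/macrophage-like cells. Irf9 was at 45.8 CPM in PBS, 96.9 with LNP-cGAMP, 45.7 with anti-PD-L1 and 65.3 with both agents, and Stat2 at 34.97, 77.5, 42.6 and 51.7 CPM in the same order. LNP-cGAMP was highest for both, by 2.12-fold (2.02 to 2.22) for Irf9 and 2.22-fold (2.10 to 2.34) for Stat2 over PBS, and the combination lay between them without reaching 1.5-fold over PBS. Within cluster 4 Stat2 was at 54.7 CPM in PBS and 112 in LNP-cGAMP, past 1.5-fold, whereas Irf9 was at 66.0 and 92.9 CPM, short of it. Irf9 overlaps Rnf31 on the same strand, so its count depends on how the authors' pipeline assigned shared reads.

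Dendritic cell-like Stat2 was at 57.5 CPM in PBS, 122 with LNP-cGAMP, 68.8 with anti-PD-L1 and 80.1 with both agents, 2.12-fold (1.64 to 2.73) higher after LNP-cGAMP. Irf9 was at 77.1, 110.0, 66.6 and 81.5 CPM there, and its difference of 0.46 on the log2 scale did not reach 1.5-fold. In neutrophil-like cells Irf9 was at 148, 217, 152 and 172 CPM and Stat2 at 126, 160.0, 121 and 104 CPM; LNP-cGAMP was highest for both genes, but neither reached 1.5-fold over PBS at class level. The all-gene median of log2 ratios in neutrophil-like cells was -0.24 with LNP-cGAMP, -0.19 with anti-PD-L1 and -0.29 with both agents, each against PBS, so these cells' ratios are read against that shift; with TMM scaling, 3 members in place of 1 were higher after LNP-cGAMP. T cell-like cells had 39.5 to 63.8 CPM of Irf9 and 14.2 to 23.2 CPM of Stat2, with no difference past 1.5-fold.

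Irf1, an activator of MHC class I and other interferon-gamma targets, had by far its highest CPM in neutrophil-like cells. It was at 1065 CPM in PBS, 1104 with LNP-cGAMP, 1049.9 with anti-PD-L1 and 762 with both agents. The first 3 pools had overlapping intervals and the combination was lower than all of them, though by less than 1.5-fold. The flat class level in LNP-cGAMP held opposite differences within it. In cluster 0 Irf1 was at 1024 CPM in PBS and 1524 in LNP-cGAMP, and in cluster 6 at 1186 CPM in PBS and 680.1 in LNP-cGAMP; the latter was past 1.5-fold and the former just short of it. The combination was at 819 CPM in cluster 0 and 657 CPM in cluster 6, both below PBS.

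In monocyte/macrophage-like cells Irf1 was at 193 CPM in PBS, 339.9 with LNP-cGAMP, 249 with anti-PD-L1 and 213 with both agents. LNP-cGAMP was highest, 1.76-fold (1.72 to 1.80) over PBS, and the combination was 1.60 times lower (1.56 to 1.64) than LNP-cGAMP. Irf2, the counterpart that often opposes Irf1, was at 132, 213, 156 and 165 CPM, 1.61-fold (1.56 to 1.66) higher after LNP-cGAMP. Neither difference was present within cluster 4, where PBS and LNP-cGAMP had 305 and 311 CPM of Irf1 and 212 and 219 CPM of Irf2, with overlapping intervals. The LNP-cGAMP clusters 2 and 5, nearly empty in PBS, held 394 and 359 CPM of Irf1. The PBS clusters 1 and 3, nearly empty in LNP-cGAMP, held 182 CPM each. The part that this mix of clusters has in the class difference was not tested. Median depth in this class was 34685 UMIs in PBS and 20599.5 with LNP-cGAMP. Irf1 had 11450 UMIs in 1631 PBS cells and 17140 in 2296 LNP-cGAMP cells, and Irf2 had 7865 and 10742 in these cells. These CPM differences are therefore shares of a smaller total per cell after LNP-cGAMP, and the part of depth in them was not tested. With each cell thinned to 900 UMIs the log2 ratios of 0.79 for Irf1 and 0.65 for Irf2 were 0.53 and 0.52, short of 1.5-fold, and that of Irf1 for the combination against LNP-cGAMP was -0.48 thinned and -0.30 within cluster 4.

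Dendritic cell-like cells had Irf1 at 212 CPM in PBS, 368 with LNP-cGAMP, 299 with anti-PD-L1 and 287 with both agents. The LNP-cGAMP level was 1.74-fold (1.51 to 2.00) over PBS, from 57 cells, and its log2 ratio of 0.77 stayed past 1.5-fold in 14 of 15 alternatives. It turned to -0.58 when every cell was thinned to 900 UMIs, which leaves few counts of Irf1 in so few cells. T cell-like Irf1 was at 149.9, 137, 132 and 91.4 CPM; the combination was lowest, 1.64 times lower (1.33 to 2.02) than PBS, a log2 ratio of -0.66 that was -0.36 in cells with at most 5% mitochondrial UMIs and -0.58, just short of 1.5-fold, with TMM scaling. The class drew on different clusters in each pool, with 15 and 55 PBS cells in clusters 9 and 13 against 108 and 48 combination cells. Irf1 was at 79.0 to 124 CPM in cluster 9 and 209 to 247 CPM in cluster 13, in the pools with at least 50 cells there, and the ratio within cluster 13 was -0.40. The part of this mix in the T cell-like differences of Irf1, Irf7, Irf8 and Stat3 was not tested. Irf2 did not reach 1.5-fold in any comparison in neutrophil-like, T cell-like or dendritic cell-like cells. Its levels there were 234 to 280.1 CPM, 74.6 to 112 CPM and 153 to 195 CPM.

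**Figure D2:**
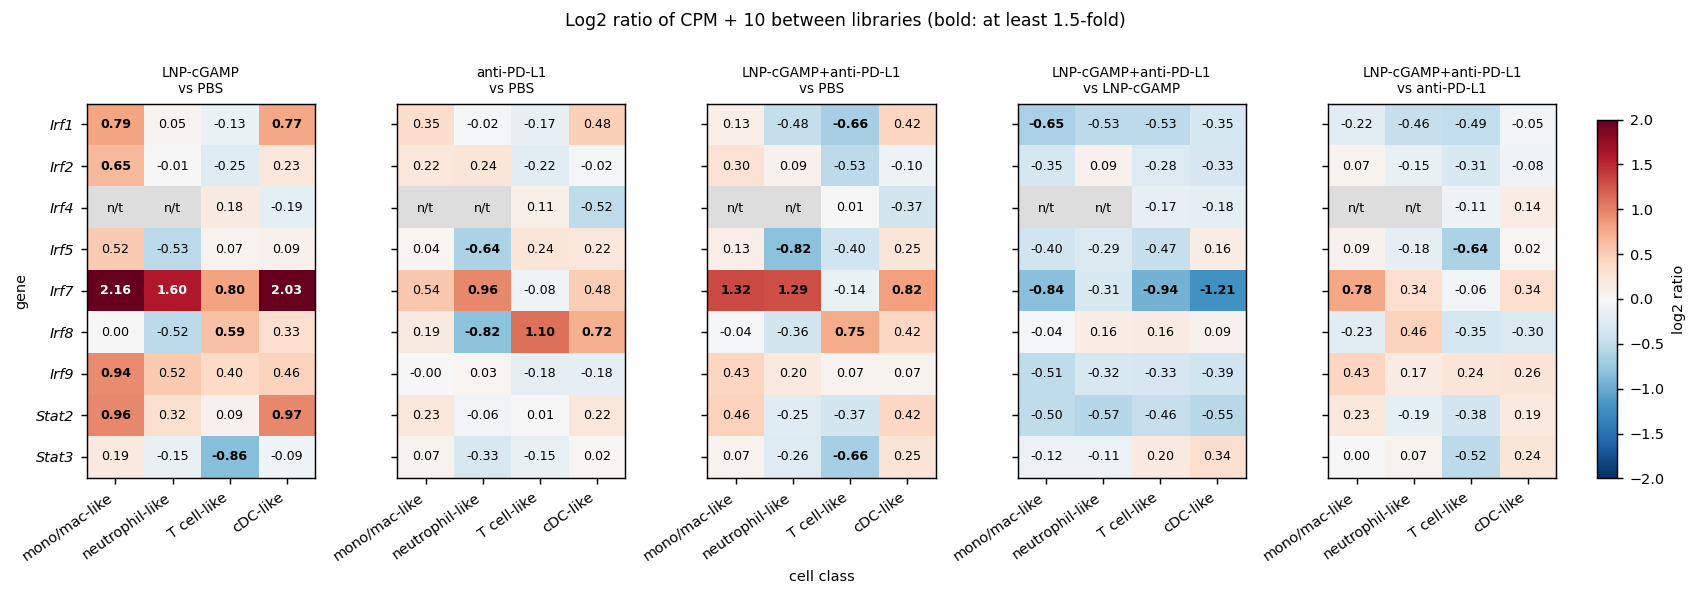
Log2 ratio of CPM + 10 for each gene (rows) in the 4 compared cell classes (columns) and the 5 comparisons (panels); bold marks at least 1.5-fold and n/t marks Irf4 where it did not pass the minimum. Irf7 has the highest ratios, 2.16, 1.60, 0.80 and 2.03 across the classes after LNP-cGAMP, and Irf8 has ratios of opposite sign after anti-PD-L1, 1.10 in T cell-like and -0.82 in neutrophil-like cells. The neutrophil-like Irf8 levels are read as RNA from other cells in the droplets, and the ratio of -0.82 is not read as a difference in expression.

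Irf5, which acts behind Toll-like receptors, had its highest levels in dendritic cell-like cells (282, 301, 331 and 337 CPM over PBS, LNP-cGAMP, anti-PD-L1 and combined treatment) and monocyte/macrophage-like cells (222, 324, 228 and 243 CPM). The LNP-cGAMP pool was highest in the latter, at 1.46-fold (1.43 to 1.49) over PBS, which did not reach the limit on the log2 scale used. In neutrophil-like cells the direction was the opposite, with 180.2 CPM in PBS and 122, 112 and 97.6 CPM in the treated pools. Irf5 was 1.61 times lower (1.36 to 1.90) in anti-PD-L1 and 1.85 times lower (1.52 to 2.26) in the combination than in PBS. Both were short of 1.5-fold with TMM scaling or after centring on the median of all genes. The anti-PD-L1 difference was also short of it with cells thinned to 900 UMIs. Markers of other cells and background RNA in this class were also highest in PBS. Summed monocyte and macrophage markers were at 2625 CPM in PBS, 2065 with LNP-cGAMP, 1232 with anti-PD-L1 and 1982 with both agents, and dendritic cell markers at 165, 73.1, 83.2 and 92.8 CPM. Background RNA was estimated at 14.0%, 5.33%, 3.66% and 7.05%, worth 31.5, 14.2, 7.91 and 15.6 CPM of Irf5. With this background subtracted the log2 ratios against PBS were -0.63 (anti-PD-L1) and -0.89 (combination), still past 1.5-fold; the part of the markers' cells was not tested. The level was higher in cluster 0 (216, 165, 149 and 120.2 CPM), and cluster 6 held 73.4, 77.3, 54.8 and 55.9 CPM. Against PBS, the anti-PD-L1 difference was short of 1.5-fold in both clusters, and that of the combination was short of it in cluster 6. Cluster 0 held 686 of 865 neutrophil-like cells in PBS. In the treated pools it held 485 of 815, 621 of 920 and 380 of 560. The part of this mix in the Irf5 difference was not tested.

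Irf8, the factor that directs monocyte and conventional dendritic cell development, had its highest levels among the 5 plotted classes in dendritic cell-like cells: 523 CPM in PBS, 661 with LNP-cGAMP, 866 with anti-PD-L1 and 703 with both agents. All 3 treated pools were above PBS, and anti-PD-L1 was 1.66-fold (1.55 to 1.77) higher. In the gate that classed cells singly by their markers, without clusters, the log2 ratio for anti-PD-L1 was 0.28 in place of 0.72, and in male-called cells it was 0.44. NK cell-like cells followed among these classes, at 511, 555, 573 and 539.7 CPM, with intervals that overlapped between the pools. Within a pool, the NK cell-like interval overlapped that of dendritic cell-like cells in PBS alone. The few B cell-like cells (14 to 36 per library) had 435, 763, 460.0 and 709.7 CPM, with intervals that overlapped those of dendritic cell-like cells in every pool other than anti-PD-L1. Monocyte/macrophage-like cells had 353, 354, 403 and 343 CPM, the same in PBS and LNP-cGAMP within counting error (fold 0.98 to 1.02). Irf8 overlaps Gm20388 on the same strand, so its count too depends on how shared reads were assigned.

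Irf8 varied more between monocyte/macrophage-like clusters than between treatments. It was at 529 CPM (LNP-cGAMP) and 560.1 CPM (combination) in cluster 8, and at 126 CPM (anti-PD-L1) and 100.02 CPM (combination) in cluster 12, whose leading genes are Alox15 and Prg4. Irf5 was also low in cluster 12, at 105 CPM in anti-PD-L1 and 114 CPM in the combination. Irf2, by contrast, was at 163 and 140.4 CPM there, within the range of the other clusters.

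The T cell-like level of Irf8 was 119 CPM in PBS, 184 with LNP-cGAMP, 266 with anti-PD-L1 and 207 with both agents. All 3 treated pools were above PBS, by 1.54-fold (1.26 to 1.91), 2.23-fold (1.81 to 2.79) and 1.73-fold (1.41 to 2.16). Cluster 13, with Tcf7 and Lef1 among its leading genes, held 42.8 CPM in PBS, 81.9 in LNP-cGAMP and 136 in anti-PD-L1. Cluster 9 (Gzmb, Cd8a, Pdcd1) held 201 CPM with LNP-cGAMP, 346 with anti-PD-L1 and 186 with both agents, and PBS had only 15 cells in it. With each cell weighted equally, the log2 ratio for anti-PD-L1 was 0.50 in place of 1.10, and it was 0.39 with cells thinned to 900 UMIs. The LNP-cGAMP ratio of 0.587 was only just past 1.5-fold and stayed past it in 10 of 15 alternatives. It was 0.36 when thinned and 0.20 in the gate of single cells, both short of 1.5-fold. The combination's ratio of 0.75 was short of it too in that gate (0.25), with at most 5% mitochondrial UMIs (0.55) and within cluster 13 (0.09). Summed markers of monocytes and macrophages in T cell-like cells lay between 2018 and 2651 CPM. Those of dendritic cells were at 1886 CPM in PBS, 575 with LNP-cGAMP, 1211 with anti-PD-L1 and 535 with both agents. NK cell markers were at 610.1, 1509, 279.8 and 1333 CPM in the same order, and NK cell-like cells had 511 to 573 CPM of Irf8. Background RNA would give 10.7 to 29.3 CPM of Irf8 in these cells. Their part in the Irf8 level was not tested.

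Neutrophil-like cells had 27.2, 16.004, 11.1 and 19.0 CPM of Irf8. These levels were at or below, or within 0.2 CPM of, what the near-empty profile would give (39.4, 15.8, 12.3 and 19.6 CPM), so they are read as background, and the ratio of -0.82 for anti-PD-L1 is not read as a difference in expression. Irf4, the factor of activated lymphocytes and of a subset of dendritic cells, was low throughout. T cell-like cells had 10.6 CPM in PBS, 13.3 with LNP-cGAMP, 12.3 with anti-PD-L1 and 10.7 with both agents, and dendritic cell-like cells 11.0, 8.37, 4.70 and 6.21 CPM, from 7 to 32 UMIs per library. Monocyte/macrophage-like cells had 2.76 CPM in PBS and 2.77 in anti-PD-L1 (164 and 199 UMIs) but 0.635 in LNP-cGAMP and 1.08 in the combination (32 and 72 UMIs). The intervals of the pools with LNP-cGAMP and those without it did not overlap, although Irf4 is below the minimum for a call; in PBS and anti-PD-L1 the level was highest in cluster 3, at 3.88 and 3.90 CPM, a cluster with 2 cells in LNP-cGAMP.

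Stat3 stayed within 1.5-fold between all pools in the myeloid classes. Monocyte/macrophage-like cells had 123, 141, 129 and 129 CPM, neutrophil-like cells 323, 290.2, 255 and 268 CPM, and dendritic cell-like cells 179.6, 169, 182 and 216 CPM. T cell-like cells split by treatment: 237 CPM in PBS and 213 in anti-PD-L1, against 126 in LNP-cGAMP and 146 in the combination, and the intervals of these 2 pairs did not overlap. Their median depth split in the same way, at 5728 and 7669.5 UMIs against 16036 and 17474. Stat3 had 201 UMIs in 82 PBS cells and 486 in 148 anti-PD-L1 cells. It had 703 in 241 LNP-cGAMP cells and 547 in 160 combination cells. The part of depth in this split of CPM was not tested. Stat3 was 1.88 times lower (1.60 to 2.20) after LNP-cGAMP and 1.62 times lower (1.37 to 1.91) in the combination than in PBS. With each cell weighted equally both log2 ratios were -0.57, just short of 1.5-fold, and that of the combination was -0.58 with TMM scaling and -0.52 in the gate of single cells. Within cluster 13 the levels were 158 CPM in PBS and 116 in LNP-cGAMP, short of 1.5-fold. Within cluster 9 they were 239.7 CPM in anti-PD-L1, 152 in the combination and 128 in LNP-cGAMP. Summed NK cell markers in the T cell-like class went the other way, at 610.1 CPM in PBS, 279.8 in anti-PD-L1, 1509 in LNP-cGAMP and 1333 in the combination, and their part in the Stat3 levels was not tested.

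The members' counts are given beside the shares of all genes tested. In monocyte/macrophage-like cells 5 of 8 members that passed the minimum were higher after LNP-cGAMP (Irf1, Irf2, Irf7, Irf9 and Stat2) and none was lower, where 7.79% of 7599 genes were higher and 6.47% lower. None was past 1.5-fold for anti-PD-L1 against PBS (all genes 1.01% higher, 0.526% lower), and Irf7 alone was higher for the combination against PBS (2.62% higher, 1.13% lower). Irf1 and Irf7 were lower in the combination than in LNP-cGAMP (all genes 2.91% higher, 1.74% lower), and Irf7 alone was higher in the combination than in anti-PD-L1 (1.17% higher, 0.671% lower). The median log2 ratio of the 8 members was 0.72 for LNP-cGAMP against PBS, beside 0.06 over all genes. Of 9 members in dendritic cell-like cells, 3 members were higher after LNP-cGAMP (Irf1, Irf7 and Stat2), where 7.59% of genes were higher and 11.1% lower. There Irf8 alone was higher for anti-PD-L1 (1.32% higher, 1.37% lower), Irf7 alone was higher for the combination against PBS (2.98% higher, 2.78% lower) and lower against LNP-cGAMP (8.76% higher, 6.29% lower), and no member differed between the combination and anti-PD-L1 (2.52% higher, 1.73% lower).

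In neutrophil-like cells Irf7 was the 1 member of 8 that was higher in each treated pool against PBS, where 3.89%, 1.84% and 2.84% of 6203 genes were higher with LNP-cGAMP, anti-PD-L1 and both agents. The shares of genes lower in these cells were 17.3%, 11.3% and 18.9%, so the lower calls of Irf5 and Irf8 for anti-PD-L1 and of Irf5 for the combination are read against those shares. No member was past 1.5-fold between the combination and LNP-cGAMP (1.68% higher, 3.87% lower) or anti-PD-L1 (2.61% higher, 3.48% lower). For LNP-cGAMP against PBS in T cell-like cells, Irf7 and, only just, Irf8 were higher and Stat3 lower among 9 members (6.16% of 8299 genes higher, 5.82% lower). Irf8 was higher for anti-PD-L1 (3.88% higher, 2.48% lower), and for the combination Irf8 was higher and Irf1 and Stat3 were lower (4.87% higher, 7.66% lower). Irf7 was lower in the combination than in LNP-cGAMP (0.458% higher, 1.54% lower), and Irf5 was lower in the combination than in anti-PD-L1 (2.27% higher, 5.53% lower), at 28.1 against 49.2 CPM. Of these levels, background RNA would give 16.6 and 18.9 CPM, and the log2 ratio of -0.64 ran from -1.88 within cluster 13 to 0.16, the opposite direction, with cells thinned to 900 UMIs. Few counts of Irf5 are left in T cell-like cells after thinning. These comparisons share pools, so their counts are not independent of each other.

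The combination pool was not uniform. Its cells in the Saa3 clusters were almost all male-called (250 male-called and 8 female-called cells in cluster 5, 132 and 8 in cluster 7), while those in clusters 1, 2, 3, 4 and 8 were almost all female-called (485 of 492 called cells in cluster 2). Male-called monocyte/macrophage-like cells of this pool (463 cells) had 115 CPM of Irf1, 184 of Irf8 and 25.5 of Stat2, against 227, 368 and 54.8 CPM in female-called cells (1494 cells). Irf7 differed less between them, at 517 and 595 CPM. In the anti-PD-L1 pool the same split gave 247 and 248 CPM of Irf1 and 438 and 385 CPM of Irf8 for male-called and female-called cells, so Irf1 did not differ between the calls there.

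Cluster by cluster, the gap between LNP-cGAMP and the combination in Irf1, Irf7 and Stat2 was widest in the Saa3 clusters. In cluster 5 LNP-cGAMP and the combination had 359 and 137 CPM of Irf1, 1159.8 and 573 of Irf7, 113 and 70.1 of Irf9, and 61.5 and 22.5 of Stat2. All 4 were past 1.5-fold. In cluster 2 the same pair had 394 and 324 CPM of Irf1, 1189.6 and 955 of Irf7, 105 and 100.4 of Irf9, and 92.6 and 82.7 of Stat2, none of them past 1.5-fold. Restricted to male-called cells, the only ones LNP-cGAMP has, 4 members in place of 2 were lower in the combination than in LNP-cGAMP. Sex, mouse and cluster cannot be told apart in this pool.

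**Figure D3:**
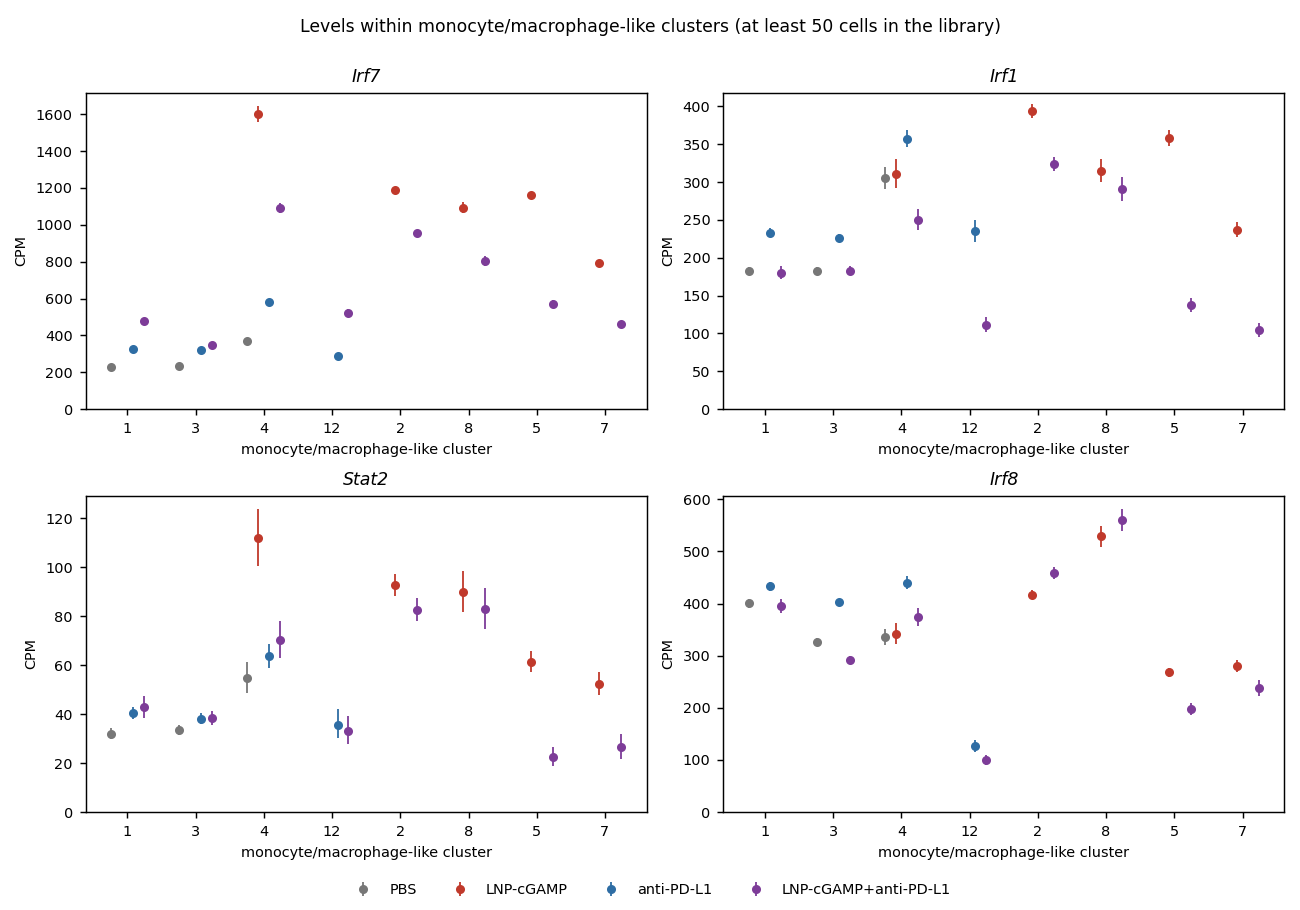
CPM of Irf7, Irf1, Stat2 and Irf8 within monocyte/macrophage-like clusters, for libraries with at least 50 cells in the cluster, with exact 95% counting intervals. In cluster 4, filled by all 4 libraries, Irf7 spans 368 to 1601 CPM and Irf8 336 to 439.9 CPM; in clusters 5 and 7 the combination lies below LNP-cGAMP for each of the 4 genes.

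**Figure D4:**
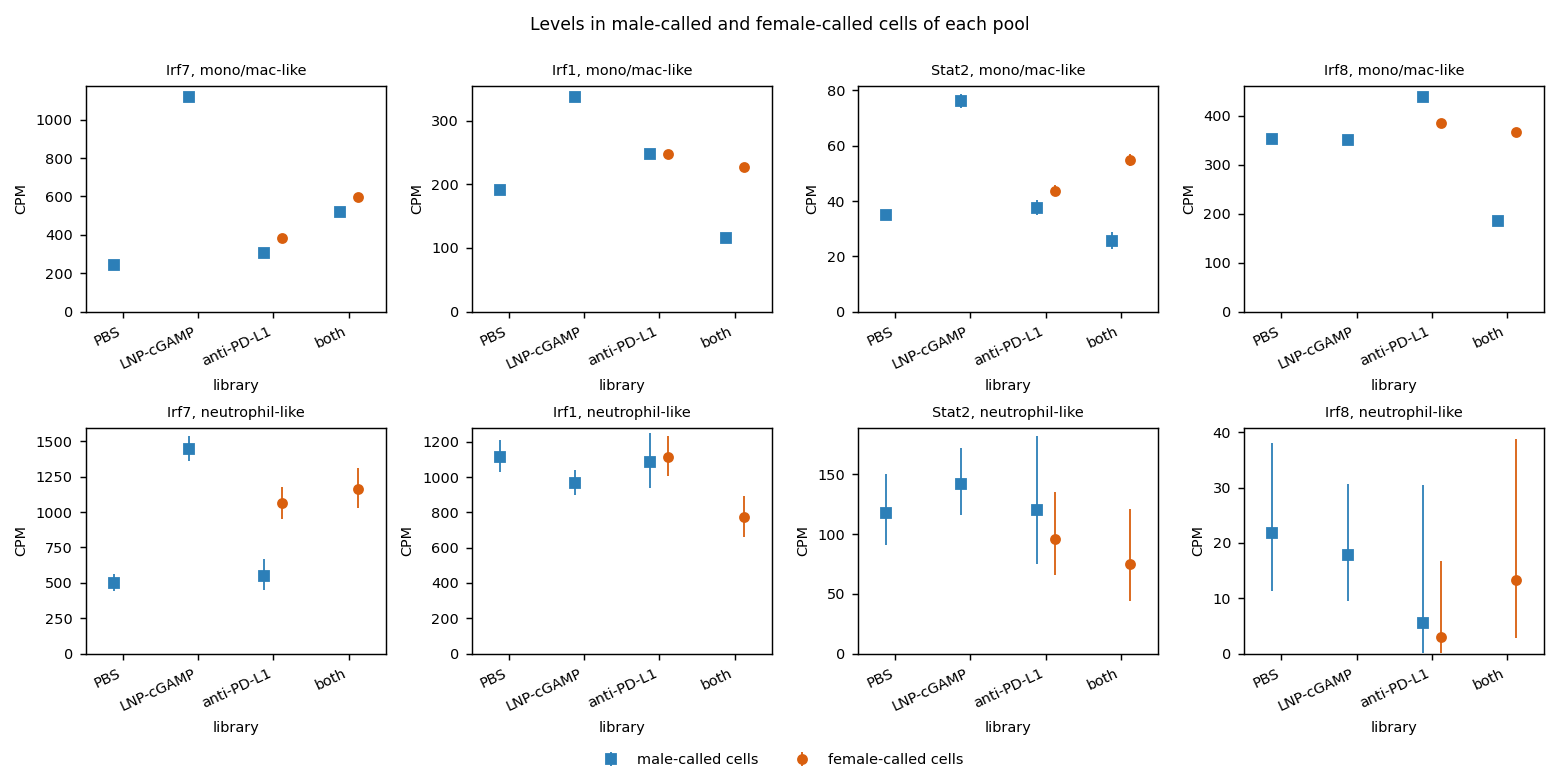
CPM of Irf7, Irf1, Stat2 and Irf8 in male-called (squares) and female-called (circles) cells of each library, in monocyte/macrophage-like (top) and neutrophil-like cells (bottom), with exact 95% counting intervals. In the combination pool Irf1 is at 115 CPM in male-called and 227 CPM in female-called monocyte/macrophage-like cells, and in the anti-PD-L1 pool Irf7 is at 551 and 1061 CPM in male-called and female-called neutrophil-like cells.

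The members' pathway was followed in 6 lists of 62 genes. In monocyte/macrophage-like cells after LNP-cGAMP, 7.79% of all genes tested were higher and 6.47% lower, with a median log2 ratio of 0.06. Beside this, 3 of 14 receptor chains and Janus kinases were higher and none lower, with a median log2 ratio of 0.40. They were Csf3r, the receptor of G-CSF (10.1 CPM in PBS, 42.0 in LNP-cGAMP), Il6st, the shared chain of interleukin-6 family receptors (22.3 and 43.8), and Il10rb, a chain of interleukin-10 family receptors (109 and 182). Summed neutrophil markers in this class were at 419.7 CPM in PBS and 778 in LNP-cGAMP, and background RNA at 1.61% and 4.82%; their part in the Csf3r difference was not tested. Of 10 inhibitors that passed, 3 were higher (median 0.40): Usp18, which blocks the type I interferon receptor, at 19.8 and 81.9 CPM, Socs1 at 75.2 and 177 CPM, and Socs3, the feedback inhibitor of STAT3 signals, at 65.0 and 140.2 CPM. Of 9 kinases and adaptors that activate interferon regulatory factors, 2 were higher (median 0.23), namely Tmem173, which encodes STING, at 75.4 and 145 CPM, and Myd88 at 94.8 and 180.3 CPM. Batf was the 1 of 4 DNA-binding partners that was higher (24.6 and 42.5 CPM), and 1 of 8 other family genes was higher (median 0.26). A count of 1 gene in lists this short is not read as a difference from all genes. Only 2 of 11 ligands passed the minimum and neither was past 1.5-fold. The interferon genes Ifna2 and Ifna4, named here after their values were seen, had 0 UMIs in these cells in all 4 pools, which allows up to 0.0595 CPM in LNP-cGAMP (3 counts of the class total).

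Socs1 was the 1 listed gene that was higher in monocyte/macrophage-like cells after anti-PD-L1, where 1.01% of all genes tested were higher. It was at 187 CPM against 75.2 in PBS, with 111 CPM in the combination. It had the same order in dendritic cell-like cells (115 CPM in PBS, 234 with LNP-cGAMP, 251 with anti-PD-L1 and 159 with both agents), and in neutrophil-like cells it was at 404 CPM in PBS, 361 with LNP-cGAMP, 745 with anti-PD-L1 and 386 with both agents. After LNP-cGAMP, in dendritic cell-like cells, 5 of 12 inhibitors were higher, with Usp18 at 46.1 and 213 CPM, Socs3 at 101 and 249 CPM and Socs2 at 53.0 and 116 CPM, beside 4 of 14 receptor chains and kinases. Of all genes tested there, 7.59% were higher and 11.1% lower. Among T cell-like cells, listed genes differed in both directions. Ifng, the type II interferon, was at 49.6 CPM in PBS, 90.9 with LNP-cGAMP, 57.5 with anti-PD-L1 and 209 with both agents, while Socs3 was at 124, 55.5, 68.1 and 34.0 CPM and Ifngr2 at 33.0, 14.6, 17.1 and 5.88 CPM. In the same order, cluster 9 (Gzmb, Cd8a) held 15 of 82, 158 of 241, 51 of 148 and 108 of 160 T cell-like cells. Summed NK cell markers in this class were at 610.1, 1509, 279.8 and 1333 CPM. The part of this mix and of these markers in the 3 genes' levels was not tested.

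For each member, the genes most like it were taken over the 16 class-by-library levels by Pearson correlation of log2(CPM + 10) among 8175 genes. The points share libraries and the large differences between classes, so these values are a description. Irf7 was most like Oasl1 (r = 0.98), H2-D1 (0.97) and F11r (0.96). Irf1 was most like Parp14 (0.99), Trim30a (0.99) and Sertad3 (0.99), Irf2 most like Oasl2 (0.97), Ist1 (0.97) and Slfn2 (0.97), and Irf9 most like 5430427O19Rik (0.98), Samd9l (0.98) and Herc6 (0.97). Several of these, such as Oasl1, Oasl2, Parp14 and Samd9l, are themselves known as interferon-stimulated genes. Stat2 was most like Myd88 (0.98), Fgr (0.98) and BC017643 (0.98), Irf5 most like Plekhm3 (0.98), Unc93b1 (0.98) and Asah1 (0.98), and Irf8 most like Lat2 (0.99), Frmd4a (0.98) and Tmem173 (0.98). Irf4 was most like Atp2a3 (0.98), Fasn (0.97) and Pde3b (0.97), and Stat3 most like Crebrf (0.94), Gm26740 (0.94) and Ube2h (0.94).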

How the data were processed

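Single-cell RNA was sequenced from 4 pooled pleural samples, 1 per treatment. The deposited values are raw UMI counts per gene and barcode, made by the authors with Cell Ranger 3.0.2 on mm10, per the submitters' processing notes. The sources used here name 2 versions of the library kit, and which was used was not settled.

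Barcodes were kept above the valley of each library's UMI distribution (861 to 989 UMIs, sought between 300 and 5000), with at least 200 genes and at most 10% mitochondrial UMIs. Cells were clustered with scanpy 1.11.5 (2000 variable genes, 30 principal components, 15 neighbours, Leiden resolution 1 with leidenalg 0.10.2). Left out of the variable genes were the members, the 62 listed genes and interferon-stimulated, MHC class I and proteasome genes. So were cell cycle, heat shock, haemoglobin, mitochondrial, ribosomal, antigen-receptor, metallothionein and sex-linked genes. Clusters were named from 78 listed markers, 3 of which were not matched in the gene table. No doublet caller was run. Counts were summed per class and library and divided by the class total, so deep cells weigh more. A call needed 1.5-fold on log2(CPM + 10). The steps were tested on simulated data, with Python 3.11.15, scipy 1.17.1 and matplotlib 3.10.9. TMM factors came from edgeR 4.0.16 in R 4.3.3 and served only as an alternative scaling.

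A cell was male-called with Y-linked UMIs and no Xist, and female-called with Xist and no Y-linked UMIs. Background RNA was estimated from barcodes of 10 to 100 UMIs. From the gene lists, at most the 3 genes with the largest ratio in each direction per list and comparison were named, and for likeness the 3 genes with the highest correlation. The members and lists were chosen with earlier results of these data known. Each value was recomputed under 15 other choices, and under 2 more chosen after seeing the data. Results for 1 further family gene are not reported here.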

Additional observations from a re-analysis of the deposited data

Results flagged for a closer look

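Irf8 differed in sign between cell classes under anti-PD-L1. Its log2 ratio to PBS was higher in T cell-like than in neutrophil-like cells by 1.91, and higher in dendritic cell-like than in neutrophil-like cells by 1.53. These differences were not tested, and the neutrophil-like levels are at the level of background RNA.

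Classes too small to compare also held values above PBS. In NK cell-like cells Irf7 was at 130.2 CPM in LNP-cGAMP against 49.3 CPM in PBS (29 cells, 11 UMIs of Irf7). The median depth of NK cell-like cells was 24788 UMIs with LNP-cGAMP and 6443 with PBS. In tumour cell-like cells, 18 to 38 per library, Irf7 was at 139.7 CPM with LNP-cGAMP, 53.5 with anti-PD-L1 and 82.4 with both agents, against 15.1 CPM in PBS. Irf1 was at 100.3 CPM with anti-PD-L1 and 117 with both agents against 70.4 in PBS, and Irf5 at 14.1 and 17.6 against 5.16. Irf8, at 31.5 and 42.5 against 9.95 CPM, and Stat2, at 29.9 and 23.0 against 11.1 CPM, were above PBS in the same pools. The median depth of tumour cell-like cells was 70802 UMIs with PBS, 1260.5 with LNP-cGAMP, 29988 with anti-PD-L1 and 25602.5 with both agents. Near-empty barcodes held 444 CPM of Irf7 with PBS, 1043 with LNP-cGAMP, 377.5 with anti-PD-L1 and 643 with both agents. The part of background RNA in the NK cell-like and tumour cell-like levels was not tested.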

How the results depend on the processing

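No paired analysis was possible because each treatment has 1 library. Over 15 other processing choices and 2 chosen after seeing the data, 508 counts of members past 1.5-fold were within 1.5 times the main count and 92 were not, and of the log2 ratios of single members 2138 stayed within the reported counting interval and 391 did not. Among ratios past 1.5-fold in the report, a further 2 changed sign; sign changes of ratios short of 1.5-fold are among the other values. Those 2 were Irf5 in T cell-like cells for both agents against anti-PD-L1 (0.16) and Irf1 in dendritic cell-like cells for LNP-cGAMP against PBS (-0.58), each with cells thinned to 900 UMIs. Thinning leaves few counts of each gene in these 2 small classes, so thinned values there carry large counting error. The higher level of Irf7 after LNP-cGAMP stayed past 1.5-fold in every alternative run in monocyte/macrophage-like, neutrophil-like and dendritic cell-like cells, at log2 ratios of 2.05 to 2.20, 1.30 to 1.94 and 1.76 to 2.18. Most female-called fits, and male-called fits of the combination outside monocyte/macrophage-like cells, had too few cells and were not run. Where a count moved, the cause was not tested.

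In what follows, the count of the report stands in brackets after each count. With each cell thinned to 900 UMIs, the count of members past 1.5-fold was, in monocyte/macrophage-like cells, 3 higher (5) for LNP-cGAMP against PBS, 1 higher (0) for anti-PD-L1 against PBS, 2 higher (1) for both agents against PBS, 1 lower (2) for both against LNP-cGAMP, 2 higher (1) for both against anti-PD-L1. Neutrophil-like cells had 2 higher (1) for LNP-cGAMP against PBS, 1 lower (2) for anti-PD-L1 against PBS, 1 lower (0) for both against LNP-cGAMP, 1 higher (0) for both against anti-PD-L1. T cell-like cells had 0 higher (2) for LNP-cGAMP against PBS, 2 lower (0) for anti-PD-L1 against PBS, 4 lower (2) for both agents against PBS, 1 higher (0) and 3 lower (1) for both against LNP-cGAMP, 2 higher (0) and 3 lower (1) for both against anti-PD-L1. For dendritic cell-like cells it was 3 lower (0) for LNP-cGAMP against PBS, 2 lower (0) for anti-PD-L1 against PBS, 4 higher (1) and 2 lower (0) for both agents against PBS, 3 higher (0) and 2 lower (1) for both against LNP-cGAMP, 2 higher (0) and 2 lower (0) for both against anti-PD-L1. Within the cluster best filled in all libraries, the count of members past 1.5-fold was, in monocyte/macrophage-like cells, 2 higher (5) for LNP-cGAMP against PBS, 1 higher (0) for anti-PD-L1 against PBS, 1 lower (2) for both against LNP-cGAMP. Neutrophil-like cells had 2 higher (1) for LNP-cGAMP against PBS, 1 lower (2) for anti-PD-L1 against PBS, 2 lower (0) for both against LNP-cGAMP. The T cell-like count was 0 lower (1) for LNP-cGAMP against PBS, 2 higher (1) for anti-PD-L1 against PBS, 0 higher (1) and 1 lower (2) for both agents against PBS, 1 higher (0) and 3 lower (1) for both against LNP-cGAMP, 1 higher (0) and 2 lower (1) for both against anti-PD-L1. In male-called cells, the count of members past 1.5-fold was, in monocyte/macrophage-like cells, 2 lower (0) for both agents against PBS, 4 lower (2) for both against LNP-cGAMP, 2 lower (0) for both against anti-PD-L1. Neutrophil-like cells had 1 lower (0) for LNP-cGAMP against PBS, 0 higher (1) for anti-PD-L1 against PBS. Those counts were, in T cell-like cells, 2 higher (1) and 1 lower (0) for anti-PD-L1 against PBS. The dendritic cell-like count was 0 higher (1) for anti-PD-L1 against PBS. In female-called cells, a choice made after seeing the data, the count of members past 1.5-fold was, in neutrophil-like cells, 1 higher (0) for both against anti-PD-L1. With each cell weighted equally, the count of members past 1.5-fold was, in monocyte/macrophage-like cells, 1 higher (0) for anti-PD-L1 against PBS. Neutrophil-like cells had 1 lower (0) for LNP-cGAMP against PBS, 2 lower (0) for both against LNP-cGAMP. T cell-like cells had 1 higher (2) and 0 lower (1) for LNP-cGAMP against PBS, 0 higher (1) for anti-PD-L1 against PBS, 0 lower (1) for both against LNP-cGAMP, 0 lower (1) for both against anti-PD-L1. Dendritic cell-like cells had 1 lower (0) for anti-PD-L1 against PBS. With TMM factors, the count of members past 1.5-fold was, in neutrophil-like cells, 3 higher (1) for LNP-cGAMP against PBS, 1 lower (2) for anti-PD-L1 against PBS, 0 lower (1) for both agents against PBS. The T cell-like count was 0 lower (2) for both agents against PBS. With ratios centred on the median of all genes, the count of members past 1.5-fold was, in neutrophil-like cells, 2 higher (1) for LNP-cGAMP against PBS, 1 lower (2) for anti-PD-L1 against PBS, 0 lower (1) for both agents against PBS. Those counts were, in T cell-like cells, 1 higher (2) for LNP-cGAMP against PBS. With a pseudocount of 1 CPM, the count of members past 1.5-fold was, in neutrophil-like cells, 1 lower (0) for LNP-cGAMP against PBS, 1 lower (0) for both against LNP-cGAMP, 1 higher (0) for both against anti-PD-L1. T cell-like cells had 2 lower (1) for both against LNP-cGAMP. For dendritic cell-like cells it was 1 lower (0) for anti-PD-L1 against PBS, 1 lower (0) for both agents against PBS, 2 lower (1) for both against LNP-cGAMP. With a minimum of 50 CPM, the count of members past 1.5-fold was, in neutrophil-like cells, 1 lower (2) for anti-PD-L1 against PBS. The T cell-like count was 0 lower (1) for both against anti-PD-L1. With the near-empty profile subtracted, the count of members past 1.5-fold was, in neutrophil-like cells, 1 lower (2) for anti-PD-L1 against PBS. Those counts were, in T cell-like cells, 0 higher (2) for LNP-cGAMP against PBS, 4 lower (2) for both agents against PBS. The dendritic cell-like count was 2 higher (1) for anti-PD-L1 against PBS. With cells gated singly by markers, the count of members past 1.5-fold was, in T cell-like cells, 1 higher (2) for LNP-cGAMP against PBS, 0 higher (1) for both agents against PBS, 2 lower (1) for both against anti-PD-L1. Dendritic cell-like cells had 0 higher (1) for anti-PD-L1 against PBS, 3 lower (1) for both against LNP-cGAMP. With at most 5% mitochondrial UMIs, the count of members past 1.5-fold was, in T cell-like cells, 1 higher (2) for LNP-cGAMP against PBS, 0 higher (1) for both agents against PBS, 2 lower (1) for both against LNP-cGAMP, 2 lower (1) for both against anti-PD-L1. For dendritic cell-like cells it was 2 lower (1) for both against LNP-cGAMP. With a minimum of 2000 UMIs, the count of members past 1.5-fold was, in neutrophil-like cells, 2 higher (1) and 1 lower (0) for LNP-cGAMP against PBS. At Leiden resolution 2, the count of members past 1.5-fold was, in neutrophil-like cells, 2 lower (0) for LNP-cGAMP against PBS, 2 lower (1) for both agents against PBS, 1 lower (0) for both against anti-PD-L1.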
